A study of Mus musculus with 8 samples.

Results

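The endothelin system was followed in primary spheres of mouse sympathetic ganglion cells grown with or without retinoic acid (RA). It was taken as 7 genes: the receptors Ednra and Ednrb, the ligand precursors Edn1, Edn2 and Edn3, and the endothelin-converting enzymes Ece1 and Ece2. All array probes whose RefSeq accession named 1 of these genes were used, which gave 8 probes for the 7 genes, out of 55617 probes and 20641 genes with a probe. The genes were chosen with the comparison of the media in view, so their differences between media are given as a description, without a test.

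The spheres came from the superior mesenteric ganglion (SMG) of 3-week-old mice on the 129+Ter/SvJcl strain background. All mice carried 1 kind of transgene, TH-MYCN in the hemizygous state (TH-MYCN+/-), in which the tyrosine hydroxylase promoter drives human MYCN and which gives rise to neuroblastoma. Dissociated cells were divided between RA (+) medium and RA (-) medium and the spheres were collected after 8 days, with replicates 1 to 4 in each medium. Each replicate number stands for 1 animal, so the 8 arrays form 4 pairs. Mice without the transgene and uncultured ganglia are not analysed here.

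Endothelins are short peptides, cut from larger precursors by furin-type convertases and then by the converting enzymes, which are membrane metalloproteases. The receptor encoded by Ednra binds endothelin 1 and 2 more strongly than endothelin 3, while the receptor encoded by Ednrb binds all of them alike, and both act through heterotrimeric G proteins, above all of the Gq class. In the neural crest, the source of sympathetic ganglia, the Edn3-Ednrb pair is known for the development of enteric neurons and melanocytes, and the Edn1-Ednra pair for the patterning of the jaw and the cardiac outflow tract. In adult tissue Ednra is best known from vascular smooth muscle, Ednrb from endothelium and glia, and Edn1 from endothelium.

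The receptor genes are set side by side here because Ednra carried the largest difference of the members and Ednrb was near the detection limit. The 250 bases before the RefSeq start of Ednra (GRCm38.p6, chr8:77724453-77724702, minus strand) and of Ednrb (chr14:103843702-103843951, minus strand) read as follows, 5′ to 3′. Capitals would mark a match to a searched motif, and neither sequence had one.
Ednra: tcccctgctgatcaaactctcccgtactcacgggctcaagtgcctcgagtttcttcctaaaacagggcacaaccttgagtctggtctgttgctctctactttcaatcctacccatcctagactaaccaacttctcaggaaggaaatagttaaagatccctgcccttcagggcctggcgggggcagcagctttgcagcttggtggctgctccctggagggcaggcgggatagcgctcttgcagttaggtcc
Ednrb: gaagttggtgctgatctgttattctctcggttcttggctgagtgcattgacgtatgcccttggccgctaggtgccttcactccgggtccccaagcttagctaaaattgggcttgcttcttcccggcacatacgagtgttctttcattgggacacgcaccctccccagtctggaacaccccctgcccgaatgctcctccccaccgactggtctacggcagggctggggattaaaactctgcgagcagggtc

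Motifs were searched on both strands and compared with 32851 RefSeq windows of 250 bases. The nuclear receptor half-site AGGTCA was found in 14% of all windows. Direct repeats of this half-site spaced by 2 or by 5 bases, which overlap it by construction, were each found in 0.00913%. A half-site variant, GGTTCA, was found in 8.85% of windows. The E-box bound by MYC proteins, CACGTG, was found in 6.02%. The GC box was searched as GGGCGG and found in 32.7%. The TATA box was searched as TATAAA and found in 12.4%. All 7 members had a window, 10 windows in all because Ece1 has 4 starts. No member's window held the half-site, its variant, a direct repeat or the TATA box. The GC box was found before Ece2 and before 2 of the 4 starts of Ece1, and the E-box before 1 start of Ece1. The GC content of the window was 54.8% for Ednra and 56.8% for Ednrb, against a median of 52.4% over all windows. A missing match says only that these letters are not in this window.

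Levels are log2 values of the processed signal set against the array's own 75th percentile, which lay at 228 to 306 intensity units. A spot is called detected where the scanner software marked it well above background, and 48.5% to 55.3% of the spots of an array were. The medium labels were checked on direct RA targets. Rarb, the RA receptor beta, stood between 4.32 and 4.42 on the RA (+) arrays and between 2.31 and 2.70 on the RA (-) arrays. Dhrs3, which reduces retinaldehyde, stood between 5.09 and 5.25 with RA and between -0.12 and 0.39 without. Cyp26b1, which degrades RA, stood between 7.86 and 8.00 with RA, and was detected on 1 of 4 RA (-) arrays. The sympathetic identity of the cells was checked with 14 markers, all of which were detected on enough arrays to be tested. Th, tyrosine hydroxylase, which makes the catecholamine precursor, stood between 3.86 and 4.57 with RA and between 7.71 and 7.93 without.

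Ednra was lower in RA (-) medium in all 4 animals, and Ece2 differed little. The Ece1 difference varied between animals in size and direction, and Ednrb and the 3 ligand genes were at or near background. The probe of Ednra was 1 of 2 probes detected on all 8 arrays, the other being that of Ece2. Of the 7 genes, 3 had a probe detected on at least 4 arrays, the filter used over the whole array, and could enter the fit: Ednra, Ece1 and Ece2. In that fit 64.3% of 13539 genes were called changed with 28.2% called lower in RA (-) and 36.1% higher. Of the 3 members in the fit 1 was called, and nothing is read from that count, because the members were chosen on the same contrast.

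**Figure D1:**
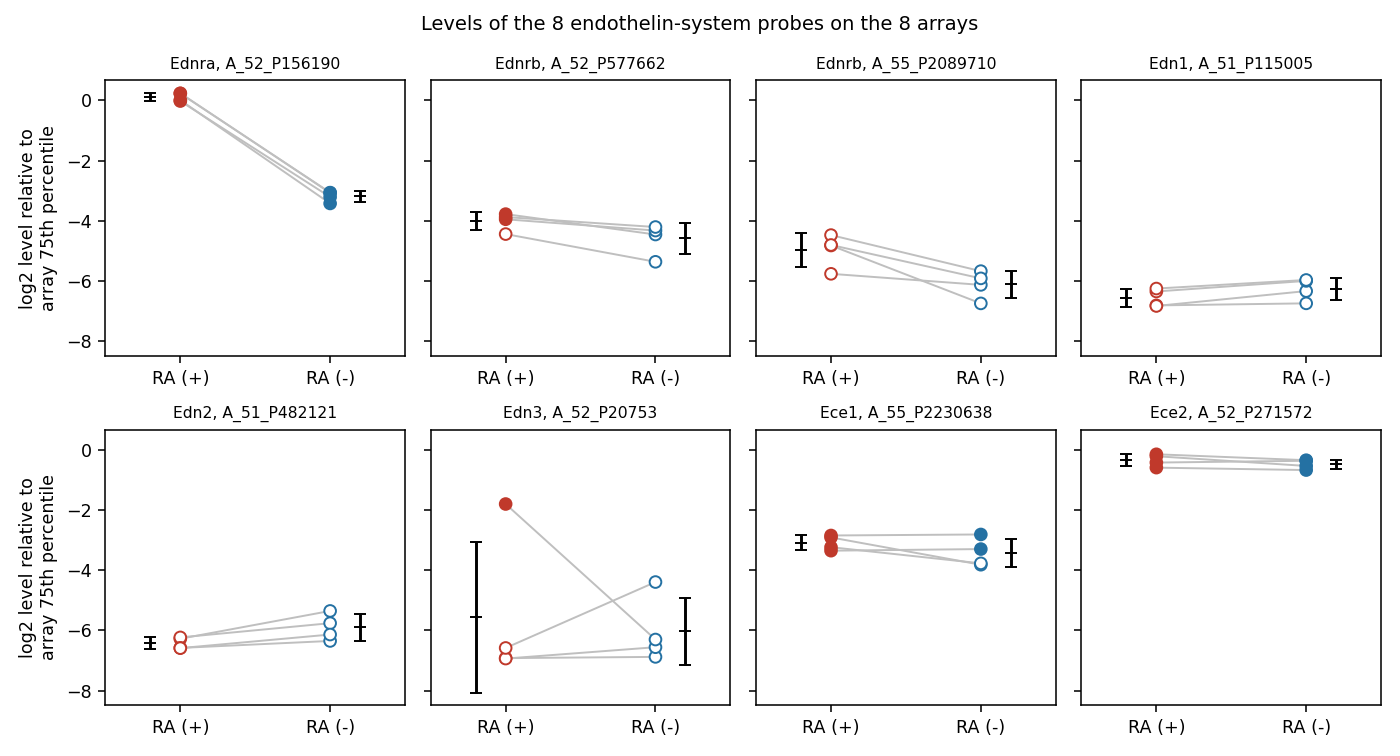
Levels of the 8 probes of the 7 endothelin-system genes, as log2 signal over the array's 75th percentile. Each point is 1 array, filled where the probe was well above background; grey lines join the arrays of 1 animal, and black bars give the mean ± SD of 4 arrays. Ednra stands near 0 in RA (+) and near -3.2 in RA (-), while the ligand probes stay mostly at open points below -5.

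The signal of Ednra was 303, 359, 268 and 294 intensity units on RA (+) arrays 1 to 4. On RA (-) arrays 1 to 4 it was 27.5, 29.2, 31.1 and 25.4. The 4 RA (+) signals were all many times the RA (-) signals, and the RA (-) signals still lay above the lowest detected signal of their arrays, which was 10.9 to 16.2. In log2 levels the mean was 0.11 ± 0.14 with RA and -3.19 ± 0.17 without (SD, n = 4). The difference was -3.30 (SE 0.07 in the fit), or 9.9-fold lower without RA. By animal it was -3.43, -3.29, -3.30 and -3.19, with an SD of 0.10.

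The 4 animals thus lay close together. The median SD of the paired differences over all tested genes was 0.19, and 16.7% of tested genes had a smaller SD than Ednra. By its change Ednra ranked 159th from the lowest of 13539 genes, and 98.6% of tested genes had a change of smaller size. The median change over all tested genes was 0.07. In a whole-sphere RNA sample, fewer cells that express Ednra and less Ednra RNA per cell cannot be told apart.

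**Figure D2:**
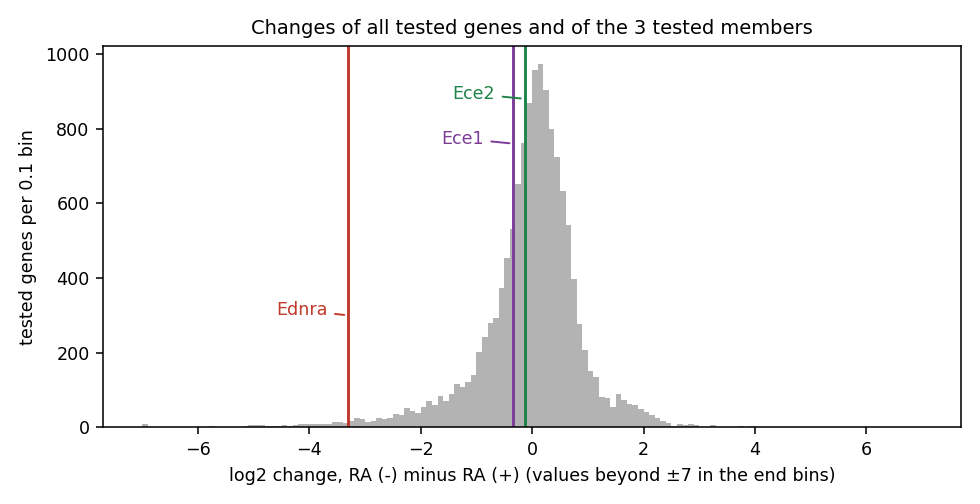
Log2 change, RA (-) minus RA (+), of all 13539 tested genes in bins of 0.1 (grey bars), with lines at the 3 members that could be tested. Ednra lies in the lower tail at -3.30, and Ece1 and Ece2 lie within the bulk at -0.34 and -0.14.

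With normexp background correction and quantile normalization the Ednra change was -2.005. That setting differs in several choices together, since it starts from the median signal and adds a constant of 50 intensity units, and which of them moved the value was not tested. With the spot signals as processed, the other scalings gave -3.15 to -3.42 and leaving out single animals gave -3.26 to -3.34. The change was negative under all 14 settings.

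**Figure D3:**
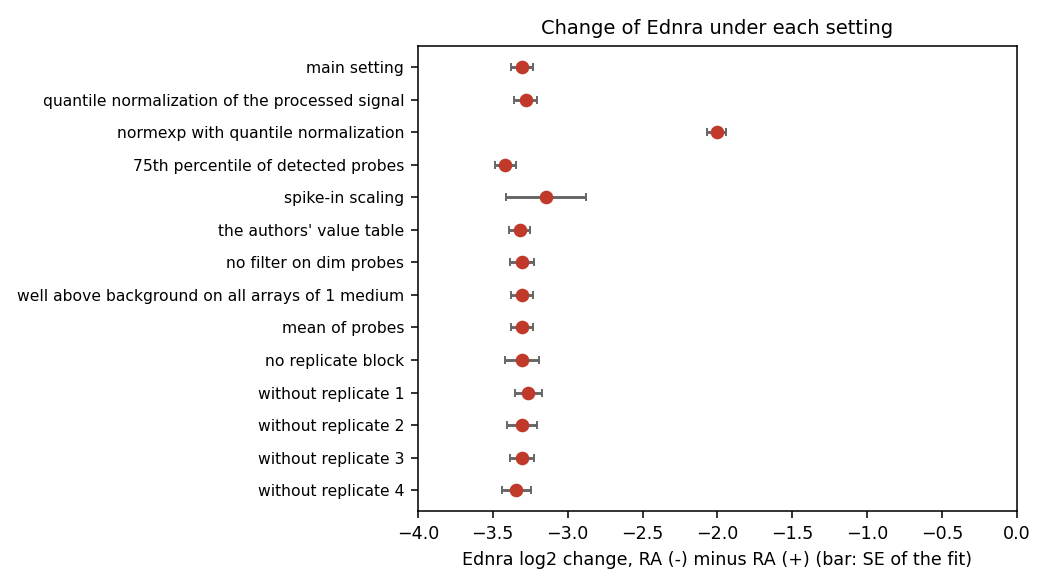
Log2 change of Ednra, RA (-) minus RA (+), under the main setting and 13 others; bars are the standard error of the limma fit. The values lie between -3.42 and -3.15 except with normexp and quantile normalization, at -2.005.

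Ednrb had 2 probes, and neither was detected on 4 arrays. The brighter probe gave 22.0, 19.8, 10.5 and 20.4 intensity units on RA (+) arrays 1 to 4 and was well above background on 3 of them. On RA (-) arrays 1 to 4 it gave 13.5, 12.2, 6.37 and 12.7 units and was detected on none of them. The arrays of animal 3 were the lowest in each medium, and the media overlapped. The paired difference was -0.58 ± 0.28 (SD, n = 4), negative in all 4 animals. Since no RA (-) array and not every RA (+) array gave a detected signal, the fold is uncertain. The dim side was taken as the higher of the probe's own signal and the lowest detected signal of the array. On that rule the level with RA was 1.14-fold higher. This is not a lower limit, because undetected spots can lie above that lowest signal. The other Ednrb probe was detected on 0 of 8 arrays. Its mean was -4.96 ± 0.55 with RA and -6.11 ± 0.46 without, for which no fold is given.

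Edn1, the precursor of endothelin 1, was printed as 10 spots on each array. Of these 80 spots, 5 were marked as outliers by the scanner software and left out. The 75 spots that remained ranged from 2.30 to 9.88 intensity units, and none was well above background. Among the 5 outlier spots, 4 were well above background, each on a different array. The mean level of the kept spots was -6.56 ± 0.30 with RA and -6.26 ± 0.36 without (SD, n = 4), values that only describe the background.

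Edn2, the precursor of endothelin 2, was detected on 0 of 8 arrays, with 2.38 to 4.07 intensity units in RA (+) and 3.20 to 7.21 in RA (-). Edn3, the precursor of endothelin 3, has 1 spot on each array and was detected on a single array. Its signals were 2.49, 2.50, 65.4 and 3.12 units on RA (+) arrays 1 to 4 and 2.50, 2.59, 3.31 and 11.2 units on RA (-) arrays 1 to 4. RA (+) array 3 stood apart from all others, and its RA (-) partner from the same animal was at background. The mean level was -5.56 ± 2.51 with RA and -6.04 ± 1.12 without (SD, n = 4), and no fold is given. Among the spots that were not marked as outliers, those of the ligands were thus not well above background in either medium, apart from that 1 spot.

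Ece1, the main converting enzyme, gave 41.9, 29.9, 30.3 and 31.7 intensity units on RA (+) arrays 1 to 4, all well above background. On RA (-) arrays 1 to 4 it gave 41.9, 24.8, 18.5 and 17.2 units, and arrays 3 and 4 were not well above background. Animals 1 and 2 differed by 0.03 and 0.05 and animals 3 and 4 by -0.91 and -0.54, so the direction was shared by 2 of 4 animals. The mean level was -3.09 ± 0.25 with RA and -3.43 ± 0.47 without (SD, n = 4), and the difference was -0.34 ± 0.47. Of all tested genes, 89.2% had a smaller SD of the paired differences. Over the 14 settings the change ranged from -0.47 to -0.07.

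Ece2, a converting enzyme active at acidic pH and known from neurons and neuroendocrine cells, was detected on every array. Its signals were 271, 263, 151 and 222 intensity units on RA (+) arrays 1 to 4 and 232, 168, 164 and 182 on RA (-) arrays 1 to 4. The media overlapped, and the difference by animal was -0.20, -0.32, -0.08 and 0.06. The mean level was -0.35 ± 0.20 with RA and -0.48 ± 0.15 without (SD, n = 4), a difference of -0.14 ± 0.16. With spike-in scaling the change was 0.02, of the opposite sign. The gene table also lists a read-through gene, Eef1akmt4-ece2, over the same interval, for which the array has no probe under its own name, so the signal may include it.

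On its chromosome Ednra lies between Tmem184c and Rbmxl1, the nearest tested genes. Tmem184c was called lower, by limma, with a change of -0.33 (SE 0.08, adjusted p = 0.0125) and Rbmxl1 rose by 0.92 (SE 0.14, adjusted p = 0.00208). Neither neighbour came near the size of the Ednra difference. The neighbours of Ednrb, Slain1 (0.05, SE 0.14) and Pou4f1 (0.23, SE 0.24), were not called. Of the neighbours of the other members, Hivep1 beside Edn1 was called lower (-0.88, SE 0.11), Camk2n2 beside Ece2 lower (-0.39, SE 0.13), and Prelid3b (0.97, SE 0.13) and Gm14393 (0.48, SE 0.09) beside Edn3 higher. With spike-in scaling Tmem184c (-0.18) and Camk2n2 (-0.23) were not called. With that scaling the fit gave Ednra, Ece1 and Ece2 the same SE of 0.27, so calls lost there also depend on that SE. In all, 6 of the 14 neighbours were called and 8 were not, against the 64.3% of all genes.

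The tested genes whose centred profile over the 8 arrays lay closest to that of Ednra were Syt6, Rgl3 and H2-K1. Likeness was the root mean square difference between profiles, each centred on its own mean, and was 0.11, 0.14 and 0.16 on the log2 scale. Syt6, a synaptotagmin of vesicle exocytosis, had a change of -3.41, Rgl3, a Ras effector of the RalGDS family, -3.20, and H2-K1, a class I histocompatibility heavy chain, -3.53. In all, 160 tested genes lay within 0.5 of the Ednra profile. The measure is dominated by the difference between media, on which Ednra was chosen, and says nothing of shared control.

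**Figure D4:**
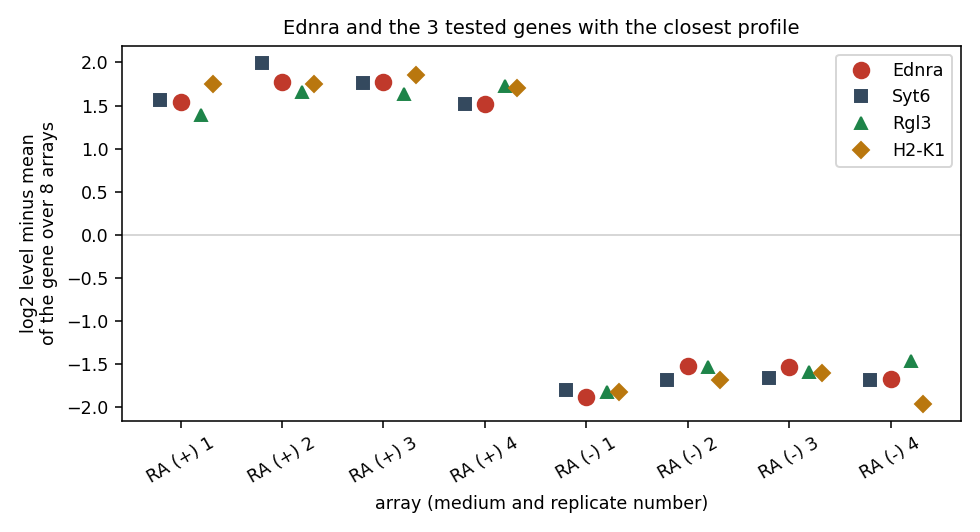
Log2 levels of Ednra and of the 3 tested genes with the closest profile on each of the 8 arrays, each gene centred on its own mean. On every array the 4 genes lie close together, all above 0 with RA and below 0 without.

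Genes outside the 7 members were looked at through lists of the steps around the receptors. Peptide processing and breakdown genes moved both ways: of 16 listed genes 9 were tested, with 3 called higher and 2 lower in RA (-). Their median change was -0.04, beside 0.07 for all tested genes, and the shares called were 55.6% and 64.3%. Pcsk6, a furin-type convertase, rose by 2.92 (SE 0.20, adjusted p = 0.000163). Pcsk2, the convertase of neuroendocrine granules, had a change of -2.37 (SE 0.17, adjusted p = 0.000181). Ecel1, a neuronal relative of the converting enzymes, fell from 5.41 ± 0.21 to 3.13 ± 0.48 (SD, n = 4; adjusted p = 0.000259). Phex, another metalloprotease of that family, was detected on 0 of 4 RA (+) arrays, so its fold is uncertain. With the dim side taken as for Ednrb it was 2.34-fold higher in RA (-). Its change was 0.28 with normexp and quantile normalization. Mme, which degrades endothelins, was detected on 0 of 8 arrays.

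Of the G protein and phospholipase C genes, 14 were called lower and 5 higher among 25 tested and 28 listed. The median change was -0.27, and 76% of the tested genes were called. Over all tested genes of the array 64.3% were called, 28.2% lower and 36.1% higher. Prkcd, a protein kinase C, had a change of -2.44 (SE 0.18) and was detected on 2 of 4 RA (-) arrays; with normexp and quantile normalization its change was -0.81. Plcb3, a phospholipase C, fell from 1.98 ± 0.22 to 0.30 ± 0.29 and Gnai1, an inhibitory G protein subunit, from 0.46 ± 0.06 to -1.17 ± 0.38 (SD, n = 4; adjusted p = 9.41e-05 and 0.000406). Plcb4, another phospholipase C, rose by 1.87 (SE 0.13, adjusted p = 0.000178). Gnaq, the G protein subunit that the receptors use most, fell by 0.58 (SE 0.08, adjusted p = 0.00182), while its relative Gna11 changed by -0.09 and was not called; the pair is named for its role. The Gnaq change was -0.42 with spike-in scaling, where it was not called. As for the chromosome neighbours, a call lost with that scaling also depends on the SE of its fit. With spike-in scaling 6 genes of the list were called lower and without animal 2 the number was 9.

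Of the genes that switch off active receptors, 3 were called higher and 4 lower among 13 tested of 16 listed, with a median change of 0.06. The share called was 53.8%, beside 64.3% of all tested genes. Grk3, a receptor kinase, fell from 3.28 ± 0.13 to 0.87 ± 0.14 (SD, n = 4; adjusted p = 5.34e-05), which is 5.3-fold. Grk4, another receptor kinase, had a change of -1.77 (SE 0.10, adjusted p = 0.000117), and one of -0.65 with normexp and quantile normalization. Rgs16, which speeds the shut-off of G proteins, rose by 2.18 (SE 0.27, adjusted p = 0.00107) and was detected on 1 of 4 RA (+) arrays; with normexp and quantile normalization it rose by 0.66. Rgs3, of the same family, rose by 0.78 (SE 0.10). With spike-in scaling 2 of the list were called lower.

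Among the neural crest partners of the Edn3-Ednrb pair, 4 were called higher and 3 lower of 11 tested and 18 listed. Their median change was 0.17, and 63.6% were called, near the 64.3% of all tested genes. Kit, a receptor of melanocyte precursors, rose by 2.52 (SE 0.18, adjusted p = 0.000195) and Zeb2, a transcription factor of crest and enteric development, by 1.96 (SE 0.10, adjusted p = 7.98e-05). With normexp and quantile normalization these changes were 1.14 for Kit and 1.3002 for Zeb2. Ret, the receptor that acts beside Ednrb in enteric neurons, fell from 5.01 ± 0.12 to 3.57 ± 0.22 (SD, n = 4; adjusted p = 0.000379). L1cam, a cell adhesion molecule, had a change of -1.96 (SE 0.13, adjusted p = 0.000154). Of the cranial targets of the Edn1-Ednra pair, 5 of 19 were tested and 10 were detected on none of the 8 arrays, among them Dlx5, Dlx6 and Gsc. Of the 5, 3 were called, which is 60%, beside 64.3% of all tested genes. Hand1 rose by 1.62 (SE 0.15, adjusted p = 0.000395), whereas Hand2 (-0.39, SE 0.07, adjusted p = 0.00591) and Alx4 (-0.82, SE 0.17, adjusted p = 0.00733) were called lower. Alx4 was detected on 1 of 4 RA (-) arrays and was not called with normexp and quantile normalization, at -0.14. Hand2 was not called with spike-in scaling, at -0.23. Under each of these settings 1 gene of the list was thus called lower.

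**Figure D5:**
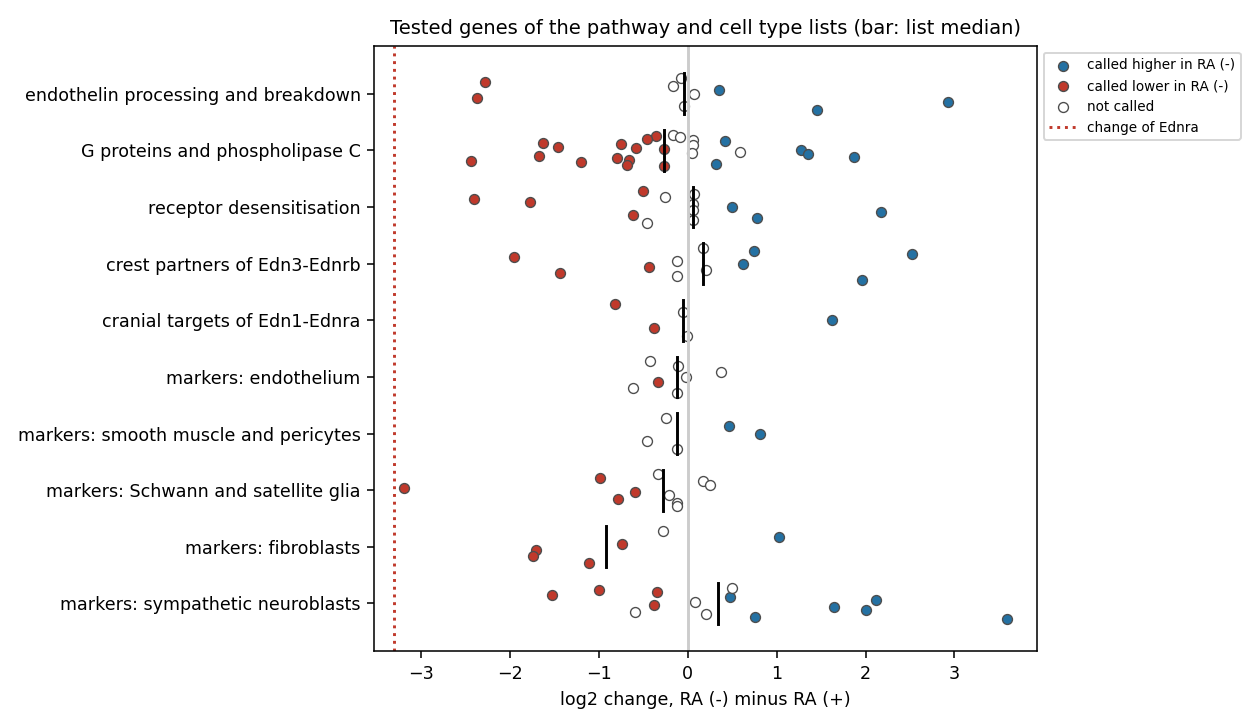
Log2 change, RA (-) minus RA (+), of each tested gene of 5 pathway lists and 5 cell type lists. Blue points were called higher, red points lower and open points not called by limma; black bars are list medians and the dotted line is Ednra at -3.30. Calls in both directions occur in each pathway list.

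Markers of cells that are known to express the members were measured beside them. Their counts stand beside the 64.3% of all tested genes that were called, 28.2% lower and 36.1% higher. Of 12 smooth muscle and pericyte genes, the usual site of Ednra, 5 were tested, with 2 called higher (Notch3 and Mcam) and 0 lower by limma at the main setting, which is 40% called. Rgs5, Cspg4 and Tagln were the tested genes that were not called. With normexp and quantile normalization, and with some other settings, 1 was called lower and 1 higher, and the rise of Mcam was called under 0 of 4 other scalings. The other 7 genes were not tested. Among them Myh11, Kcnj8 and Des were detected on 0 of 8 arrays, and Acta2 was on 3 of 8, with levels of -4.78 to -3.75 with RA and -5.60 to -3.98 without. The mean level of the 12 genes was -3.69 to -3.38 on the RA (+) arrays and -3.61 to -3.40 on the RA (-) arrays, a mean taken mostly over genes near background. The part of these cells in the Ednra difference was not tested.

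Of 13 endothelial genes 7 were tested, and 1 (14.3%) was called by limma, beside 64.3% of all tested genes. It was Pecam1 (-0.34, SE 0.12, adjusted p = 0.0474), whose call held under 1 of 4 other scalings and was lost without animal 1 or animal 4. Cdh5, Tek, Emcn and Erg, which are typical of endothelium, were detected on 0 of 8 arrays, as was Edn1 in its unflagged spots. Kdr, Vwf, Flt1, Esam and Plvap, also typical of endothelium, were detected on 8 of 8 arrays and were not called. Kdr, a receptor of vascular endothelial growth factor, stood at 2.99 to 3.30 with RA and 2.97 to 3.22 without. The mean level of the 13 genes was -4.17 to -3.22 with RA and -4.32 to -3.46 without. Of 13 genes of Schwann and satellite glia 10 were tested and 4 (40%) called, all lower, beside 28.2% of all tested genes called lower. They were Kcnj10 (-3.19, SE 0.15), Fabp7 (-0.99, SE 0.11), Pmp22 (-0.79, SE 0.19) and Mbp (-0.59, SE 0.11). Mbp was not called with spike-in scaling (-0.43). Sox10, the defining transcription factor, stood at -0.93 to -0.54 with RA and -1.09 to -0.84 without and was not called, while Erbb3 was detected on 0 of 8 arrays. The mean level of the 13 genes was -1.68 to -1.50 with RA and -2.25 to -1.91 without. Of 9 fibroblast genes 6 were tested, with 4 called lower and 1 higher, which is 83.3% called, beside 64.3% of all tested genes. Fap (-1.74, SE 0.25) and Postn (-1.11, SE 0.13) were lower, and Col1a2 rose by 1.03 (SE 0.18). Dcn was detected on 0 of 4 RA (-) arrays, so its fold is uncertain. With the dim side taken as for Ednrb it was 1.64-fold lower. With normexp and quantile normalization the change was -0.71 for Fap and -0.32 for Dcn. Pdgfra, Lum and Dpt were detected on 0 of 8 arrays, and the mean level of the 9 genes was -3.18 to -2.50 with RA and -3.76 to -3.13 without. The part of glial and fibroblast genes in the Ednra difference was not tested.

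Of the 14 sympathetic neuroblast markers, 6 were called higher and 4 lower, with a median change of 0.34. The share called was 71.4%, beside 64.3% of all tested genes. Th rose by 3.59 (SE 0.14, adjusted p = 5.34e-05), Gata2 by 2.12 (SE 0.13), Isl1 by 2.00 (SE 0.12) and Insm1 by 1.64 (SE 0.08), the latter 3 being transcription factors of sympathetic development. Lower were Dbh, which makes noradrenaline (-1.53, SE 0.13, adjusted p = 0.000271), the granule proteins Chga (-0.998, SE 0.12) and Chgb (-0.34, SE 0.11), and Hand2. Chgb was not called with spike-in scaling, at -0.19. The mean level of the 14 genes was 3.82 to 4.12 with RA and 4.39 to 4.56 without. Relative to the main setting's median of 0.07 for all tested genes, spike-in scaling put that median at 0.23 and scaling to detected probes at -0.04, so changes of that size take their sign from the scaling.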

How the data were processed

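Total RNA of 8 sphere cultures was labelled with Cy3 and hybridised to 1-colour Agilent arrays, per the labels. The labels do not tie the amount of RNA labelled to single samples, so whether it differed between arrays or media is unknown. Per the file headers, the authors extracted spot intensities with Agilent Feature Extraction, with an annotation on mm9; the processed intensity has local background and spatial trend removed array by array. All arrays share 1 scan date. The deposited table of log2 values matched the scanner values (lowest correlation 0.9999) after each probe was centred on its mean over arrays; its exact scaling stays unknown. Its column medians were -0.23, -0.22, 0.02 and -0.01 for RA (+) replicates 1 to 4 and -0.07, 0.01, 0.17 and 0.20 for RA (-) replicates 1 to 4.

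Processed intensities were taken to log2 and the array's 75th percentile was subtracted. Spots flagged as outliers were dropped, at a loss of 64 probes, and replicate spots were averaged. Accessions were named through a RefSeq table (GRCm38.p6): 27206 probes matched 1 symbol and 28411 none. A probe was tested if detected (well above background) on at least 4 arrays, and the brightest such probe stood for a gene. The fit used limma 3.58.1 (R 4.3.3), a block term for each animal, two-sided, with Benjamini-Hochberg adjustment and calls at an adjusted p under 0.05. It was also run on simulated data with independent noise and far fewer changed genes than were called here. That run does not give the rate of false calls in these data. The series' design states that the cells of a ganglion were divided between media. Deviations of same-numbered arrays from their medium's mean correlated at 0.52, 0.30, 0.19 and 0.33 for replicates 1 to 4. The highest correlation with an array of another number was -0.05, 0.02, 0.13 and 0.13, which is close for replicate 3. The number of arrays limits the precision.

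Members and lists were chosen with earlier results of these data known. Named were all members, in each list the 4 called genes that changed most, the 3 closest profiles of a member with a change of at least 1, the nearest tested gene on each side of a member, and check genes; Gnaq, Gna11 and markers that were not detected or not called were named in addition. Alternatives were other scalings, background corrections, filters, probe rules, no block, each animal left out and the deposited table. The scanner files hold no mean signal, so normexp used the median signal.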

Additional observations from a re-analysis of the deposited data

Results flagged for a closer look

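Edn3 on RA (+) array 3 stood far from the other 3 arrays of its medium. Its level was -1.80, against -6.94 to -6.58 on the others, and the gap took up 0.931 of the whole range. Edn3 has 1 spot on each array, so no other spot of that array measures it. Among the 16 sets of 4 arrays looked at (8 probes in 2 media) this was the only one, and chance alone marks about 1 set in 20.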

How the results depend on the processing

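Each result was recomputed under 13 alternatives. Spike-in scaling lowered the number of genes called from 8705 to 5212, or from 64.3% to 38.5% of 13539 tested. Of 63 tested genes of the pathway lists, 41 were called at the main setting and 27 with spike-in scaling. The SE with that scaling was 0.27 for Ednra, Ece1 and Ece2 alike, against 0.07, 0.18 and 0.09 at the main setting. Calls lost there therefore do not by themselves show that a change was removed. The members were chosen on this contrast, so counts of them support nothing. The number of members called was 2 with scaling to detected probes, where Ece2 was added at a change of -0.25, and 3 with no filter on dim probes, where Edn2 and Ednrb were called on signals at or near background. A fit with no replicate block, which ignores the pairing, called 8022 genes. Leaving out single animals gave 7350 to 8245 genes. The number of called cell type markers, 22 of 42 tested at the main setting, ranged from 17 to 25. The Ednra change moved by more than the SD between animals to -2.005 with normexp and quantile normalization, to -3.42 with scaling to detected probes and to -3.15 with spike-in scaling. Scan date could not be tested as a batch, because all arrays share it, and slide was not tested. Signal near background limits Ednrb, the ligands and Ece1.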
